A study of Mus musculus with 15 samples.

Results

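The subject is the subunits of protein kinase A (PKA), the cAMP-dependent protein kinase, in mouse primary myoblasts. They comprise 6 of the 49315 genes in the deposited tables: the regulatory subunit genes Prkar1a, Prkar1b, Prkar2a and Prkar2b and the catalytic subunit genes Prkaca and Prkacb. The 6 were taken by symbol as a family. The family was picked because Prkar2a differed in opposite directions in the 2 knockdowns, so the values of Prkar2a are given as a description, without a test. The myoblasts came from wild-type C57BL/6J mice, as 5 primary lines numbered 1, 2, 3, 4 and 7. Every line received lipid-delivered small interfering RNA, either a control RNA (siCtrl), an RNA against Lmod1 (siLmod1) or an RNA against Sirt1 (siSirt1), and was then kept in differentiation for 1 day. Lmod1 encodes leiomodin 1, which nucleates actin filaments, whereas sirtuin 1, the product of Sirt1, is a deacetylase that needs NAD. Each group therefore held 5 libraries of polyadenylated RNA, each with the same 5 lines, and all 3 groups shared the transfection and the differentiation step.

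PKA is held inactive as a complex of a regulatory dimer and catalytic subunits. When adenylyl cyclases raise cAMP, cAMP binds the regulatory subunits and the catalytic subunits are freed to phosphorylate their substrates. Type I complexes contain products of Prkar1a or Prkar1b and are largely cytosolic, whereas type II complexes contain products of Prkar2a or Prkar2b and are held at membranes and the cytoskeleton by A-kinase anchoring proteins. In muscle, PKA acts downstream of Gs-coupled receptors on glycogen breakdown, calcium channels and CREB-driven transcription.

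The libraries held 21004908 to 33601761 counts, so that 3 counts, the limit that a count of 0 allows, corresponded to 0.0893 to 0.143 CPM, the count scaled to a common library total. Such limits cover counting error alone, because reads copied by PCR do not count separate molecules. Lmod1 averaged 29.3 CPM in siCtrl and 3.46 CPM in siLmod1, and Sirt1 averaged 25.3 CPM in siCtrl and 6.65 CPM in siSirt1. Each target also differed in the other knockdown. Sirt1 averaged 38.1 CPM in siLmod1 and was above siCtrl in each line. Lmod1 averaged 17.1 CPM in siSirt1 and was below siCtrl in each line. All 8 myoblast markers examined, among them Pax7, Myod1, Myog and Des, were detected in every group, with a summed level of 6710 to 11000.0 CPM per library. Macrophage and leukocyte markers summed to 2.62 to 14.99 CPM and adipocyte markers to 0.506 to 7.78 CPM. Transcripts listed as markers of other stromal cells were detected too. Smooth muscle and pericyte markers summed to 1490 to 5972 CPM and fibroblast markers to 88.6 to 797 CPM per library. Such sums do not show which cells made these transcripts. Line 4 stood apart from the other lines on the first principal component (39.6% of the variance), and the siSirt1 library of line 7 stood apart on the second (16.0%). Libraries of the same line deviated together, least for the siSirt1 library of line 1, whose deviations correlated at 0.278 and 0.304 with those of the siCtrl and siLmod1 libraries of that line across 15716 genes. With the siCtrl library of line 3 it correlated at 0.269. On the third component (11.4%) it lay at 37.0, near the siCtrl and siLmod1 libraries of line 3 (37.7 and 35.6) and not those of line 1 (8.74 and 7.87), although the siSirt1 library had the highest score in each of the 5 lines. Its line number therefore rests on the label, and the siSirt1 ratios of line 1 and the siSirt1 fits with the line as a block rest on that number. Without line 1 in such a fit, the siSirt1 log2 fold change was -1.11 for Prkar2a, -0.08 for Prkaca and -0.65 for Prkacb, and the last 2 did not pass.

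All 6 transcripts were detected in all 15 libraries and passed the filter on low counts. Levels were compared between genes as TPM, in which counts are divided by transcript length before scaling. In siCtrl, Prkaca was the most abundant at 700 ± 238 TPM (SD, n = 5), followed by Prkar1a at 462 ± 81.3 TPM. Those values overlapped, and Prkaca lay above Prkar1a in 4 of 5 libraries. Prkar2a came next at 69.6 ± 9.31 TPM, clear of its neighbours on either side. Prkacb at 34.2 ± 3.78 TPM and Prkar2b at 34.2 ± 7.78 TPM could not be ordered, and Prkar1b was the lowest at 4.84 ± 1.45 TPM. In siLmod1 the same order held, with Prkar2a at 119 ± 13.4 TPM. In siSirt1, Prkar2a at 36.2 ± 4.98 TPM lay below Prkar2b at 39.6 ± 13.1 TPM in 4 of 5 libraries, with overlapping values, and Prkacb at 29.9 ± 14.1 TPM could not be ordered against Prkar2a.

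**Figure D1:**
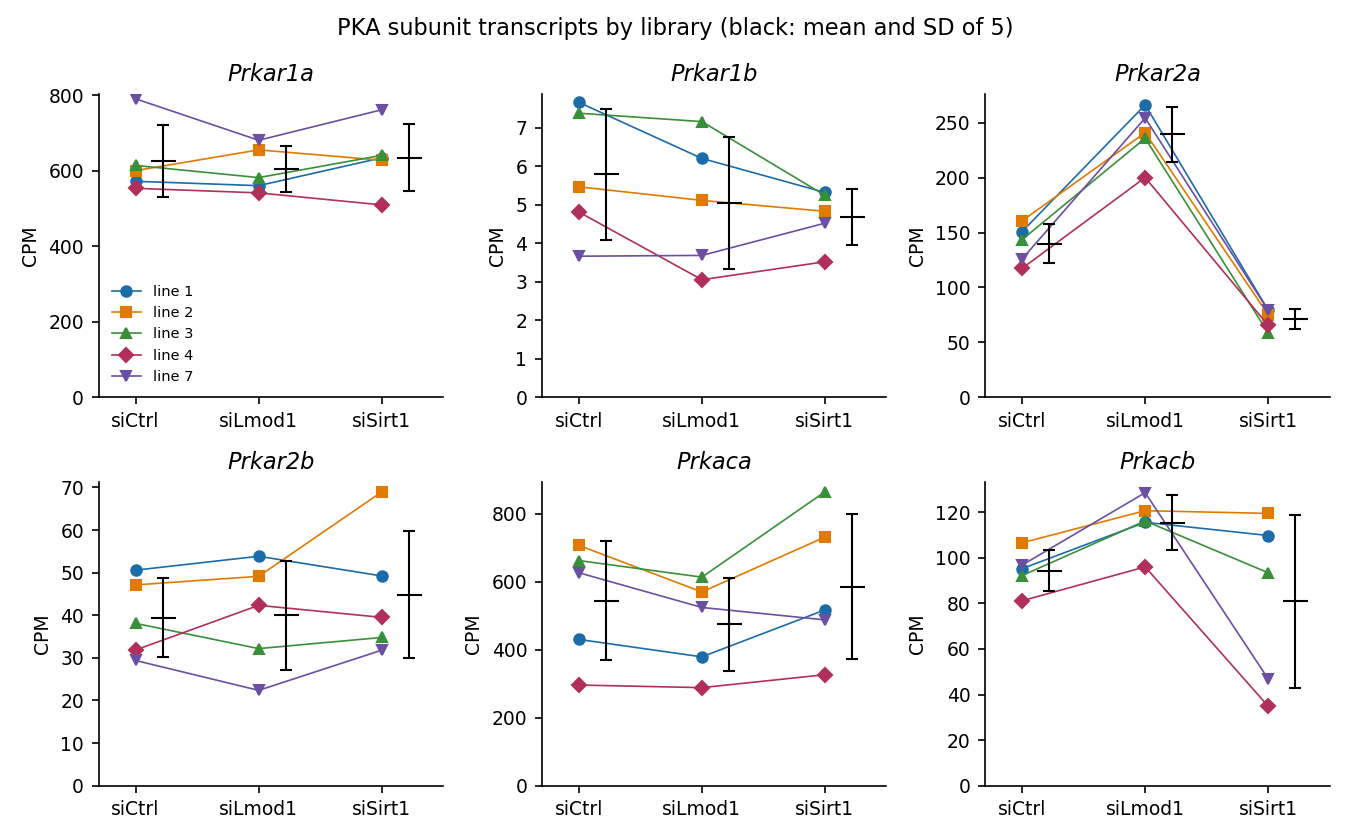
CPM (linear axis from 0) of the 6 PKA subunit transcripts in the 15 libraries; each marker is 1 library, lines join the libraries of 1 primary line, and the black bars are the mean and SD of 5. Prkar2a is the 1 panel in which the 3 groups do not overlap: 117 to 161 CPM in siCtrl, 200.2 to 266 CPM in siLmod1 and 58.5 to 79.3 CPM in siSirt1.

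Prkar2a encodes RII alpha, a regulatory subunit of type II PKA that docks on anchoring proteins. It lies on chromosome 9, from 108689314 to 108750436 on the plus strand (ENSMUSG00000032601, mm10 coordinates of GENCODE M21). In siCtrl it stood at 150.9, 160.7, 143.6, 117.4 and 125.9 CPM in lines 1, 2, 3, 4 and 7. In siLmod1 it stood at 266.4, 241.1, 236.0, 200.2 and 254.5 CPM in the same lines. In siSirt1 it stood at 79.27, 75.11, 58.50, 65.50 and 79.08 CPM. Each siLmod1 library was above every siCtrl library, and each siSirt1 library was below every siCtrl library. Over all genes tested, the share whose groups did not overlap was 2.64% for siLmod1 against siCtrl and 3.21% for siSirt1 against siCtrl. In fits with the line as a block, the log2 fold change was 0.73 (SE 0.07) in siLmod1, a 1.66-fold higher level, and -1.08 (SE 0.09) in siSirt1, a 2.11-fold lower level. Between siSirt1 and siLmod1 it was -1.83 (SE 0.08), where 5.48% of all genes had groups that did not overlap. Within lines, the log2 ratio to siCtrl ran from 0.51 in line 2 to 1.00 in line 7 for siLmod1, and from -1.33 in line 3 to -0.85 in line 7 for siSirt1. These contrasts chose the gene, so no p-value is given for them. The libraries do not mark strand, so reads of overlapping genes cannot be told apart, and such genes held at most 1 count at Prkar2a, 2 at Prkacb and 36 at Prkar1b.

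The 3' UTRs of the subunits were read for short words whose carriers were lower in each knockdown, since 3' UTRs are where small RNAs commonly pair with transcripts. For the principal transcript of each tested gene in GENCODE M21 (Prkar2a-201 for Prkar2a, with 3442 bases of 3' UTR), all words of 7 bases were listed on the transcript strand. Words with at least 100 carriers were ranked by how far the mean of their carriers lay below that of all genes, weighted by the root of the number of carriers. In siSirt1 the first was GTGAATA, with 1179 carriers among 12839 genes and a median of -0.08 on the log2 scale against 0.01 in the others. Next came CTCACTA, with 988 carriers and a median of -0.06, and then CATATAC, with 866 carriers and a median of -0.08, each also against 0.01. No word was searched on the other strand. Prkar2a holds the second and the third word, Prkar2b holds the second, and Prkacb holds the first. The sites are shown because Prkar2a was the subunit furthest below siCtrl in siSirt1, with the word in capitals and 11 bases on either side, 5′ to 3′ on the transcript.
Prkar2a, CTCACTA word: agtttttatctCTCACTAcagttacctct
Prkar2a, CATATAC word: ttggatgtattCATATACatggagtttgt
Prkar2b, CTCACTA word: atgttatactgCTCACTAtacctttagct
Prkacb, GTGAATA word: agtgttcctttGTGAATAaatggcttcac

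On mm10 the Prkar2a words lie at chr9:108749815-108749821 and chr9:108748102-108748108 on the plus strand. The Prkar2b word lies at chr12:31958816-31958822 and the Prkacb word at chr3:146731275-146731281, both on the minus strand. A long 3' UTR holds such words often: among 668 genes whose 3' UTR is within 10% of the length of that of Prkar2a, 18.7% held GTGAATA, 15.9% held CTCACTA and 16.0% held CATATAC. The genes with 0, 1 and 2 of the words that Prkar2a holds numbered 11119, 1586 and 134, with median log2 fold changes in siSirt1 of 0.01, -0.07 and -0.13. Prkar2a at -1.08 lay below the 5th percentile of the last set, -0.84. Prkar2b, which holds CTCACTA, was at 0.05. The words were picked from 15701 ranked on the siSirt1 contrast itself, with Prkar2a among the carriers, so lower medians in the carriers were built in. The sets were also not matched for the length of the 3' UTR. The sequences of the small interfering RNAs were not available, so no word was compared with them. The shift is therefore a description, and holding a word does not show a site of action. In siLmod1 the first word was ATGAACC, with 831 carriers, followed by TGAACCA, with 1241 carriers, and GAACCAA, with 1100 carriers. These 3 overlap each other, and none of the 6 subunit transcripts held any of them.

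**Figure D2:**
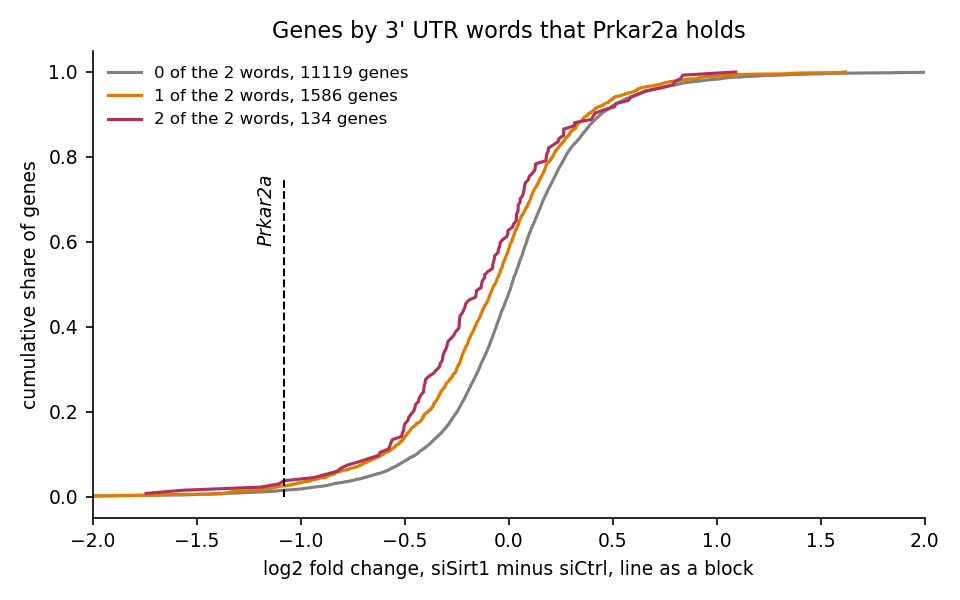
Cumulative share of genes against the log2 fold change in siSirt1 (line as a block, axis from -2 to 2) for genes whose 3' UTR holds 0, 1 or 2 of the words that Prkar2a holds; the dashed line marks Prkar2a at -1.08. The medians are 0.01, -0.07 and -0.13, and Prkar2a lies in the lower tail of all 3 sets. The words were picked from this same contrast, so lower medians in their carriers were built in, and the sets were not matched for 3' UTR length.

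The group accounted for 95.6% of the sum of squares of log2 CPM of Prkar2a over the 15 libraries, and the line for 3.2%. Prkar2a was chosen for its differences between groups, so a large share for the group was built in, and the comparison with other genes is a description. For all 15716 genes the medians were 14.7% for the group and 58.5% for the line. The order was the other way round for Prkar1a, Prkar2b and Prkaca, in which the line took 80.6%, 84.9% and 87.3%. Prkar1b followed with 66.9% for the line. Prkacb was divided between the group (32.1%), the line (30.7%) and the remainder (37.2%). As these are bulk libraries, fewer cells that express a transcript and less of it per cell cannot be told apart.

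The other type II subunit, Prkar2b (RII beta, known best from adipose tissue and brain), overlapped between all groups. It ranged from 29.4 to 50.6 CPM in siCtrl, from 22.4 to 53.8 CPM in siLmod1 and from 31.8 to 68.9 CPM in siSirt1. The highest value, 68.94 CPM, was the siSirt1 library of line 2, and the lowest, 22.37 CPM, the siLmod1 library of line 7. Its log2 fold change with the line as a block was -0.06 (SE 0.09, adjusted p = 0.66) in siLmod1 and 0.05 (SE 0.11, adjusted p = 0.83) in siSirt1. The direction differed between lines in each comparison, with 2 lines higher and 3 lower. The Prkar2a to Prkar2b ratio of TPM was 2.08 ± 0.274 in siCtrl, 3.81 ± 1.63 in siLmod1 and 0.977 ± 0.286 for siSirt1 (SD, n = 5). The value of siLmod1 spread widely because line 7, with the lowest Prkar2b, reached 6.52.

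Prkar1a, which encodes the type I subunit RI alpha, was the main regulatory transcript in every library. It averaged 626 ± 95.1 CPM in siCtrl, 604 ± 60.9 CPM in siLmod1 and 635 ± 89.3 CPM in siSirt1. Line 7 was the highest of the 5 lines in each group. With the line as a block the log2 fold change was -0.10 (SE 0.05, adjusted p = 0.19) in siLmod1 and -0.09 (SE 0.09, adjusted p = 0.58) in siSirt1. Prkar1b, the type I subunit RI beta that is typical of brain, had 88 to 248 counts per library. It averaged 5.80 ± 1.70 CPM in siCtrl, 5.05 ± 1.71 CPM in siLmod1 and 4.69 ± 0.728 CPM in siSirt1. It was lower than siCtrl in 5 of 5 lines in siLmod1 (log2 fold change -0.26, SE 0.13, adjusted p = 0.16) and in 4 of 5 lines in siSirt1 (-0.39, SE 0.18, adjusted p = 0.23), and neither difference passed edgeR's Benjamini-Hochberg threshold of 0.05.

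With Prkar1a near its control level, the make-up of the regulatory transcripts moved with Prkar2a. Prkar2a made up 12.3 ± 1.92% of summed regulatory TPM in siCtrl, 19.8 ± 1.54% in siLmod1 and 6.56 ± 0.756% for siSirt1 (SD, n = 5). The ranges were 9.32 to 14.1%, 18.5 to 22.2% and 5.45 to 7.34%, which do not overlap. Prkar1a made up 80.7 ± 3.74%, 73.7 ± 2.88% and 85.5 ± 2.85% in the same groups. Prkar2b stayed between 2.99% and 10.7% of the regulatory transcripts over the 15 libraries. The summed regulatory level itself varied less: 571 ± 78.6 TPM in siCtrl, 599.8 ± 56.2 TPM in siLmod1 and 555 ± 74.7 TPM in siSirt1. These shares restate the Prkar2a values and carry no separate test.

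**Figure D3:**
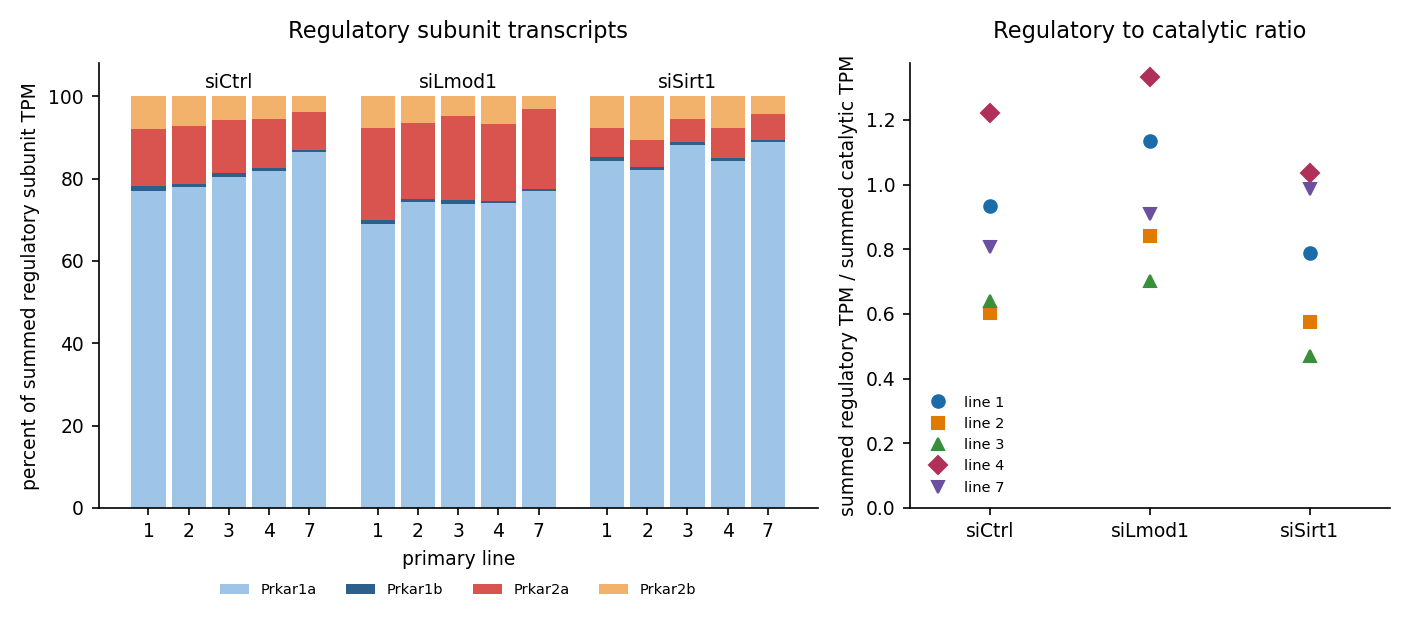
Left, percent of summed regulatory subunit TPM taken by each of the 4 regulatory genes in each library, by group and line (stacked bars from 0). Right, summed regulatory TPM divided by summed catalytic TPM, 1 marker per library; Prkar2a takes 18.5 to 22.2% of the regulatory transcripts in siLmod1 and 5.45 to 7.34% in siSirt1, and line 4 has the highest regulatory to catalytic ratio in each group.

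Of the catalytic subunits, Prkaca (C alpha, on chromosome 8, 83972993 to 83996443) supplied 94.96 ± 1.47% of catalytic TPM in siCtrl, 93.2 ± 1.5% in siLmod1 and 96.3 ± 1.29% in siSirt1. In siCtrl it stood at 430.5, 707.4, 662.7, 296.2 and 626.8 CPM in lines 1, 2, 3, 4 and 7. In siLmod1 it stood at 379.2, 570.2, 613.8, 288.6 and 524.6 CPM. Line 4 was the lowest in each group, the spread between lines was wider than any difference between groups, and the groups overlapped. Within each of the 5 lines, however, siLmod1 was below siCtrl, by log2 ratios of -0.12 to -0.38. The log2 fold change was -0.25 (SE 0.28, adjusted p = 0.89) without the block and -0.23 (SE 0.05, adjusted p = 0.0083) with it, so that Prkaca fell in edgeR's fit with the line as a block. In a fit of all 15 libraries with the block, which estimates the spread from siSirt1 as well, it was -0.22 with an adjusted p of 0.23.

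In siSirt1, Prkaca stood at 517.5, 731.9, 865.1, 326.6 and 488.0 CPM. In CPM of the library total it was above siCtrl in lines 1, 2, 3 and 4 and below it in line 7. After TMM scaling, which evens out differences in library composition, it was higher in 2 lines and lower in 3, with a log2 fold change of -0.02 (SE 0.13, adjusted p = 0.95) with the block. Between siSirt1 and siLmod1 the value was 0.20 (SE 0.12, adjusted p = 0.31), and without lines 4 and 7 it was 0.40 (adjusted p = 0.022).

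Prkacb (C beta, on chromosome 3, 146729574 to 146812990 on the minus strand) followed Prkar2a upward in siLmod1 at a smaller size. In siCtrl it stood at 95.26, 106.6, 92.23, 81.17 and 96.81 CPM in lines 1, 2, 3, 4 and 7. In siLmod1 it stood at 115.6, 120.7, 116.2, 96.02 and 128.6 CPM. It was higher in 5 of 5 lines, and the groups overlapped only through line 4, the lowest in each group, whose siLmod1 value lay below the siCtrl values of lines 2 and 7. The log2 fold change was 0.24 (SE 0.11, adjusted p = 0.58) without the block and 0.24 (SE 0.05, adjusted p = 0.0080) with it. In the fit of all 15 libraries with the block it was 0.25 with an adjusted p of 0.56.

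In siSirt1, Prkacb stood at 109.8, 119.5, 93.44, 34.86 and 46.85 CPM. Lines 1, 2 and 3 were close to or above their siCtrl level, and lines 4 and 7 were far below it. The log2 ratios to siCtrl were 0.11, 0.10, -0.02, -1.41 and -1.23 in lines 1, 2, 3, 4 and 7. The log2 fold change over all lines was -0.48 (SE 0.26, adjusted p = 0.28) with the block, and without lines 4 and 7 it was 0.06 (SE 0.08, adjusted p = 0.69). Against siLmod1 it was -0.73 (SE 0.27, adjusted p = 0.098), lower in 5 of 5 lines, and DESeq2 with the same block gave an adjusted p of 0.016. Without lines 4 and 7 this difference was -0.17 (adjusted p = 0.23). The same pair of lines showed the lowest medians of the 8 myoblast markers in siSirt1 against siCtrl. The log2 ratios were -0.76 in line 4 and -0.60 in line 7 against -0.36 to -0.10 in the other lines. The markers were split in lines 4 and 7: Myf5, Myog and Des were lower in CPM than in siCtrl, whereas Pax7 and Myod1 were higher. Pax7 went from 63.67 to 147.3 CPM in line 4 and from 83.82 to 143.8 CPM in line 7. Myod1 went from 635.8 to 941.3 CPM in line 4 and from 819.8 to 939.0 CPM in line 7. These CPM are not TMM scaled. The TMM factors of line 7 were 0.9468 in siCtrl and 1.0739 in siSirt1, and dividing by them leaves little of its Myod1 difference. The list of PKA substrates and downstream targets of muscle and metabolism had 11 transcripts tested. Their median was -0.51 in line 4 and -0.74 in line 7, against -0.39 to -0.07 elsewhere. The part of these differences in the Prkacb values was not tested.

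**Figure D4:**
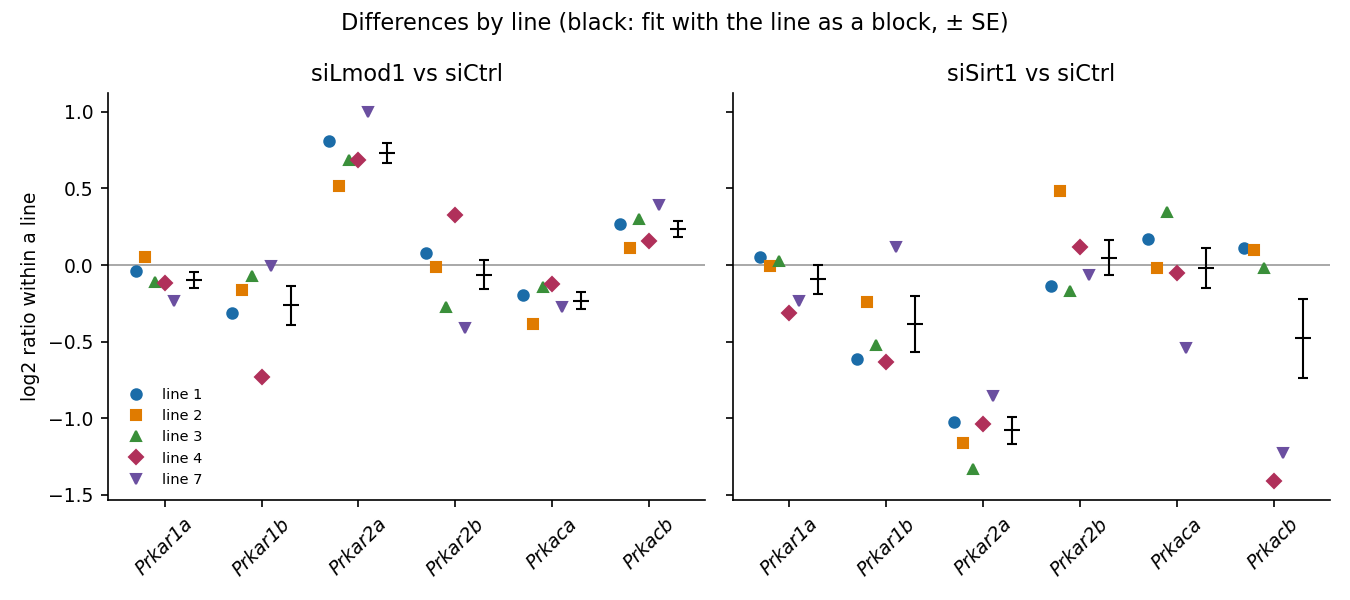
Log2 ratio to siCtrl of each PKA subunit transcript within each of the 5 lines, for siLmod1 (left) and siSirt1 (right); the black bars are the log2 fold change of the fit with the line as a block, with its SE. Prkar2a lies at 0.51 to 1.00 on the left and at -1.33 to -0.85 on the right, and Prkacb in siSirt1 separates into 3 lines near 0 and lines 4 and 7 at -1.41 and -1.23.

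Among the 5 subunits other than Prkar2a, the counts of calls were as follows. In edgeR's fits without the block, 0 of 5 passed in siLmod1 against siCtrl, where 0.113% of 15022 genes were called. Likewise 0 of 5 passed in siSirt1 against siCtrl (0.127% of 14912 genes) and in siSirt1 against siLmod1 (1.53% of 14998 genes). At an unadjusted p under 0.05, 0 of the 5 passed in these fits too, and DESeq2 without the block also called 0. With the line as a block, 2 of 5 passed in siLmod1, Prkaca lower and Prkacb higher, in a fit that called 29.5% of all genes, 12.9% higher and 16.5% lower. That share among the subunits is not far from the background. With the block, 0 of 5 passed in siSirt1 against siCtrl (7.07% of all genes, 2.72% higher and 4.35% lower) and in siSirt1 against siLmod1 (15.9%, 7.43% higher and 8.43% lower). The blocked fits held 0 of 5 and 1 of 5 at an unadjusted p under 0.05, the latter being Prkacb, which DESeq2 with the block called. Without the block, each p-value sets a difference against the spread between libraries of a group. With it, the spread is what remains after differences between lines are removed.

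The ratio of summed regulatory to summed catalytic TPM was 0.840 ± 0.251 in siCtrl, 0.983 ± 0.250 in siLmod1 and 0.771 ± 0.247 for siSirt1 (SD, n = 5). Differences between lines were wider than those between groups, and line 4, with the lowest Prkaca, had the highest ratio in each group. Within lines the ratio was above siCtrl in 5 of 5 lines in siLmod1. In siSirt1 it was below siCtrl in 4 of 5 lines, with line 7 the exception at 0.986 against 0.805. The ratio contains Prkar2a and is given as a description.

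Genes whose pattern over the 15 libraries was most like that of Prkar2a were ranked by Pearson's r of log2 CPM after the mean of each line was removed, among 9970 genes of at least 5 CPM. The nearest were Psmb1, a proteasome core subunit (0.988), Supt4a, a transcription elongation factor (0.987), Acadvl, the very long chain acyl-CoA dehydrogenase of mitochondria (0.986), the kinase Stk17b (0.985) and Wdr77, a partner of the arginine methyltransferase PRMT5 (0.984). The libraries share their lines and groups, so r describes a common pattern of 3 group means and carries no p. Sizes differed: Psmb1 averaged 190.1, 216 and 173 CPM in siCtrl, siLmod1 and siSirt1, and Stk17b averaged 171, 244 and 91.6 CPM. Of the other subunits, Prkacb was the nearest at 0.654, followed by Prkar1b at 0.336 and Prkar1a at 0.019. The r was negative for Prkar2b (-0.282) and Prkaca (-0.48), neither of which was called in siSirt1 against siCtrl.

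The other genes of the cAMP pathway were taken from 9 lists of 116 genes in all. In edgeR's fits without the block, 0 of 94 tested passed in siLmod1 and 0 of 93 in siSirt1, with 5 and 12 at an unadjusted p under 0.05, and DESeq2 without the block called 0 and 5. The calls below are therefore those with the line as a block, 27 of 94 in siLmod1 and 9 of 93 in siSirt1. Over all genes that fit called 29.5% in siLmod1 and 7.07% in siSirt1, so the total for the pathway is near the background. Both comparisons use the same siCtrl libraries. Of the 27 calls in siLmod1, 5 held in the fit of all 15 libraries with the block, which also draws its spread from siSirt1. All 9 of siSirt1 held there, where 22 of 95 were called in siSirt1. Over all 15716 genes, that fit called 1427 in siLmod1 and 2530 in siSirt1. Vipr2, 1 of the 9 and also among the 93 tested, passed the filter on low counts through its siSirt1 libraries. Its call is therefore not read as a result. Without line 1, the siLmod1 calls of Akap7, Akap8l, Akap11, Adcy2, Adcy9, Gnas, Hcn3, Fos, Egr1 and Cacna1s did not hold, with adjusted p of 0.056 to 0.14. Nor did the siSirt1 calls of Akap7, Adora2b, Hcn3, Atf1, Nr4a2 and Atf3, with adjusted p of 0.052 to 0.13, while those of Pkia and Phka1 held. The fit of all 15 libraries uses the same number for the siSirt1 library of line 1.

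The heat-stable inhibitor Pkia, a small protein that blocks free catalytic subunits and carries them out of the nucleus, was lower in both knockdowns. In siCtrl it stood at 332.3, 407.3, 358.0, 302.2 and 445.6 CPM in lines 1, 2, 3, 4 and 7. The siSirt1 libraries held 156.0, 223.5, 162.9, 112.5 and 215.6 CPM, each less than any siCtrl library. The siLmod1 libraries held 239.3, 343.4, 301.3, 214.3 and 415.0 CPM, with overlapping groups but a lower value in each line. With the block it fell by 1.23 on the log2 scale in siSirt1 (SE 0.11, adjusted p = 0.0024) and by 0.37 in siLmod1 (SE 0.07, adjusted p = 0.0026). Both calls held in the fit of all 15 libraries (adjusted p = 1.7e-05 and 0.033) and with any line left out, and without the block the adjusted p was 0.075 and 0.72. Its relative Pkig averaged 379 ± 82.9 CPM in siCtrl, 368 ± 52.9 CPM in siLmod1 and 331 ± 47.6 CPM in siSirt1 and was not called with the line as a block. Of the 3 genes tested in the list of inhibitors and the related kinase PrKX, 1 fell in siSirt1 in that fit and 2 in the fit of all 15 libraries with the block.

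The adenylyl cyclases, which make cAMP, were lower in siLmod1: 6 of 8 tested fell and 0 rose. Over all genes the fit called 16.5% lower. The median log2 fold change of the list was -0.35 against -0.01 over all genes. Adcy7 went from 106 ± 48.8 to 77.5 ± 32.1 CPM (log2 fold change -0.48, adjusted p = 0.0013) and Adcy6 from 46.7 ± 16.3 to 35.2 ± 11.4 CPM (-0.45, adjusted p = 0.00099). Adcy1, Adcy2, Adcy8 and Adcy9 fell by 0.62, 0.35, 0.34 and 0.30 on the log2 scale, and all 6 were lower in 5 of 5 lines. In the fit of all 15 libraries with the block, 0 of 8 passed, and without line 1, or without lines 4 and 7, 4 of 8 fell. In siSirt1, 0 of 8 passed, and the median was -0.04. In siLmod1, 5 of 8 myoblast markers (median -0.25) and 5 of 8 smooth muscle and pericyte markers (median -0.74) also fell. These counts stand against the same 16.5% of all genes. Summed smooth muscle and pericyte markers ranged over 2196 to 5537 CPM in siLmod1 and 2773 to 5972 CPM in siCtrl, and summed fibroblast markers had a median of 182 CPM in siLmod1 and 432 CPM in siCtrl, with 2 of 6 tested lower (median -0.44). The part of these markers in the cyclase values was not tested.

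Among 17 A-kinase anchoring proteins, which place PKA in the cell, 4 rose and 2 fell in siLmod1 (median 0.03). Over all genes that fit called 29.5%, 12.9% higher and 16.5% lower, so the share called in the list is not far from the background. Arfgef2, an exchange factor of the Golgi that binds PKA regulatory subunits, went from 115 ± 10.9 to 147 ± 13.0 CPM (log2 fold change 0.31, adjusted p = 0.0011). Akap7, Akap8l and Akap11 rose by 0.29, 0.22 and 0.21. Akap6, which anchors PKA at the nuclear envelope of muscle cells, fell by 0.35 (adjusted p = 0.00068), and Akap12, a scaffold at the plasma membrane, fell by 0.88 (adjusted p = 0.0091). Akap12 was uneven, at 2.80 to 26.9 CPM in siCtrl, and its call did not hold without lines 4 and 7 (adjusted p = 0.12). Of these 6, Arfgef2 passed in the fit of all 15 libraries (adjusted p = 0.018). In siSirt1, 1 of 17 passed, where 7.07% of all genes were called. Akap7 rose from 9.87 ± 1.63 to 16.3 ± 3.14 CPM (0.61, adjusted p = 0.037), a call that held in 0 of the 5 fits that left out a line. Without line 1, 1 anchoring protein rose and 3 fell in siLmod1.

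Of 13 cAMP phosphodiesterases, which degrade cAMP, 2 fell and 0 rose in siLmod1. Over all genes 16.5% were called lower, so this count is near the background. Pde1a, which calcium and calmodulin activate, fell by 0.58 (adjusted p = 0.00066) from 15.7 ± 20.4 CPM in siCtrl, where it ran from 1.69 to 51.8 CPM. Pde2a, which cGMP activates, fell by 0.85 (adjusted p = 0.0031) from 4.73 ± 3.98 CPM. In the fit of all 15 libraries with the block, 0 of 13 passed in siLmod1, with an adjusted p of 0.056 for Pde1a and 0.063 for Pde2a. In siSirt1, 0 of 13 passed, and 1 fell in the fit of all 15 libraries with the block. The most abundant member per length was Pde7a at 43.3 TPM in siCtrl.

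The Gs proteins and Gs-coupled receptors, which switch the cyclases on, had 9 members tested. In siLmod1, Gnas, which encodes the stimulatory G protein alpha subunit, ranged over 650.0 to 899 CPM in siCtrl and 648 to 759 CPM in siLmod1 (log2 fold change -0.20, adjusted p = 0.022). In siSirt1, Adora2b, an adenosine receptor, fell by 0.98 (adjusted p = 0.015, and 0.052 without line 1). Vipr2, a receptor for vasoactive intestinal peptide, averaged 0.388 ± 0.221 CPM in siCtrl (3 to 22 counts), 0.179 ± 0.15 CPM in siLmod1 (0 to 12 counts) and 2.07 ± 1.09 CPM in siSirt1 (14 to 72 counts). It entered the test through its siSirt1 libraries, so no test of it is given.

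Of 7 other cAMP effectors, 1 rose and 1 fell in siLmod1, and 1 rose in siSirt1. Over all genes 12.9% rose and 16.5% fell in siLmod1, and 2.72% rose in siSirt1. Popdc2, a cAMP-binding membrane protein of striated muscle, fell by 0.27 in siLmod1 (adjusted p = 0.0038). The low-level channel gene Hcn3 averaged 0.686 CPM in siCtrl, 1.14 CPM in siLmod1 (adjusted p = 0.039) and 1.94 CPM in siSirt1 (adjusted p = 0.038), and its calls held in 0 of the 5 fits that left out a line in each comparison.

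Downstream, 0 of 11 CREB factors and their regulators passed in siLmod1. In siSirt1, where 2.72% of all genes rose, 1 of 11 rose. This was Atf1, a transcription factor of the CREB family, which stood at 31.6 to 38.2 CPM in siCtrl and at 51.4 to 59.6 CPM in siSirt1, with no overlap (log2 fold change 0.53, SE 0.09, adjusted p = 0.015). Without line 1 its adjusted p was 0.054, and the fit of all 15 libraries with the block called 3 of 11 higher in siSirt1. Sik1, a kinase that restrains the CREB coactivators, was the most abundant of the list per length at 154 TPM in siCtrl and was not called.

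Of 14 transcripts known to be induced through cAMP, 5 rose and 1 fell in siLmod1, where 12.9% of all genes rose and 16.5% fell. The median log2 fold change of the list was 0.35 against -0.01 over all genes. Ppargc1a, the coactivator PGC-1 alpha of mitochondrial biogenesis, had siCtrl values of 16.82, 23.29, 24.11, 30.75 and 10.12 CPM in the 5 lines, in the order 1, 2, 3, 4 and 7. In siLmod1 it stood at 25.80, 36.65, 41.72, 56.20 and 19.46 CPM, higher in each line although the groups overlapped (0.72, SE 0.07, adjusted p = 7e-05). The orphan nuclear receptor Nr4a2 rose from 2.31 ± 1.22 to 7.72 ± 5.03 CPM (1.61, adjusted p = 0.0003), and the phosphatase Dusp1 by 0.57 (adjusted p = 0.0025). The transcription factors Fos and Junb rose by 0.59 and 0.32, and Egr1 fell by 0.31. Ppargc1a and Nr4a2 passed in the fit of all 15 libraries with the block (adjusted p = 0.0026 and 0.0076), and the other 4 did not.

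In siSirt1, 2 of the 14 rose and 0 fell, where 2.72% of all genes rose and 4.35% fell. Nr4a2 rose to 6.29 ± 1.31 CPM (1.44, adjusted p = 0.016), above every siCtrl library, and Atf3, a stress-responsive factor, rose by 0.73 (adjusted p = 0.041). Without line 1, 0 of 14 passed, and in the fit of all 15 libraries with the block 4 of 14 rose. These genes respond to many other stimuli as well.

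The last list held PKA substrates and downstream targets of muscle and metabolism. Of these, 2 of 12 fell in siLmod1 and 1 of 11 in siSirt1, and 0 rose. Over all genes, the fit with the line as a block called 16.5% lower in siLmod1 and 4.35% lower in siSirt1. The siLmod1 share of the list is near that background. Vasp, an actin-associated protein, went from 323 ± 58.8 to 257 ± 33.2 CPM in siLmod1 (log2 fold change -0.37, adjusted p = 0.00074), and Cacna1s, the voltage sensor of excitation-contraction coupling, fell by 0.16 (adjusted p = 0.037). In siSirt1, Phka1, the muscle alpha subunit of phosphorylase kinase, went from 45.1 ± 9.99 to 33.3 ± 6.66 CPM (-0.55, adjusted p = 0.013). The siSirt1 median of the list was -0.54 against 0.01 over all genes, and 6 of 12 fell in the fit of all 15 libraries with the block. Pygm encodes glycogen phosphorylase, which lies downstream of PKA and is not its direct substrate. It was the most abundant of the list per length at 465 TPM in siCtrl, and the list medians include it. Pygm averaged 467 ± 243 CPM in siCtrl, 497 ± 235 CPM in siLmod1 and 372 ± 260.0 CPM in siSirt1 and was not called. In siSirt1 the myoblast markers summed to 6710 to 7840 CPM, against 7545 to 11000.0 CPM in siCtrl. Des averaged 2819 CPM in siCtrl and 2073 CPM in siSirt1, and Myog and Myf5 averaged lower too. Pax7 averaged higher in siSirt1 before TMM scaling (60.5 CPM in siCtrl and 92.0 CPM in siSirt1), as did Myod1 (765.2 and 893.5 CPM). The part of these markers in the substrate values was not tested.

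**Figure D5:**
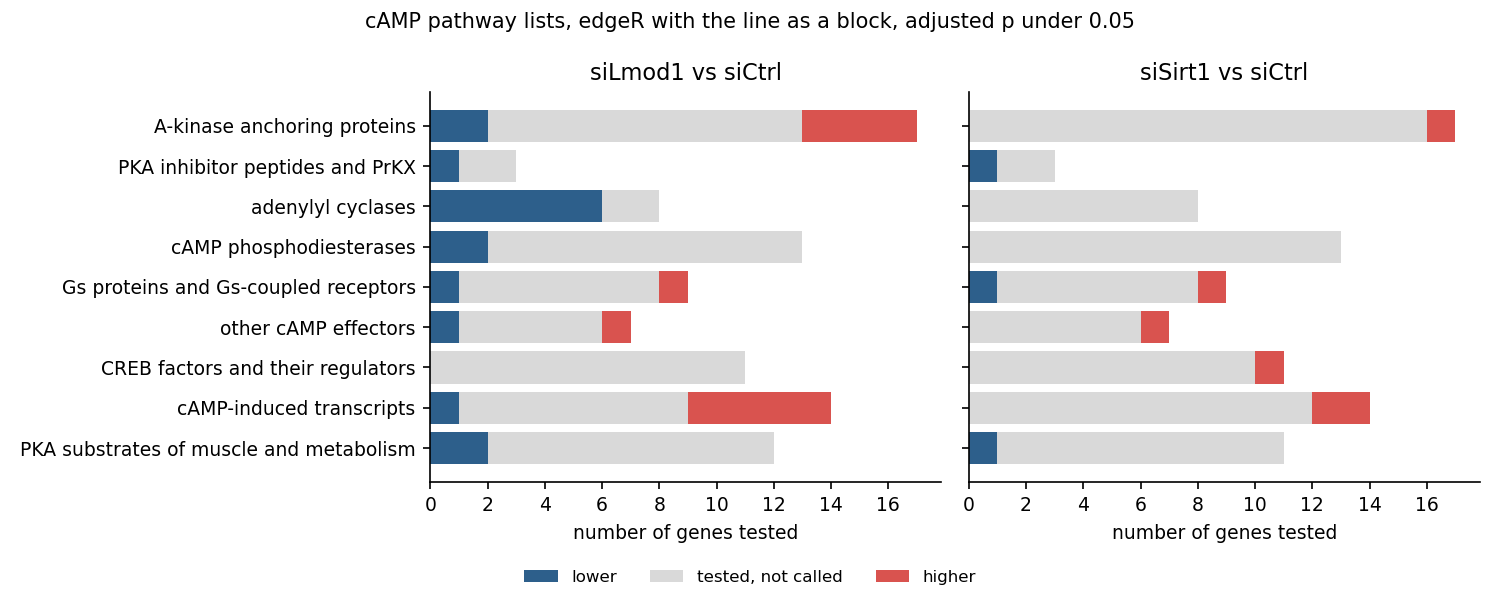
Number of genes tested in each of 9 cAMP pathway lists that were lower, not called or higher against siCtrl in edgeR's fit with the line as a block (adjusted p under 0.05), for siLmod1 (left) and siSirt1 (right). The adenylyl cyclases hold 6 lower genes of 8 in siLmod1 and 0 of 8 in siSirt1. The transcripts induced through cAMP hold 5 and 2 higher genes of 14, and 2 and 4 in the fit of all 15 libraries with the block. Over all genes, the plotted fit called 12.9% higher and 16.5% lower in siLmod1, and 2.72% and 4.35% in siSirt1. Vipr2, in the Gs list, entered the siSirt1 test through its siSirt1 libraries. The list of PKA substrates also holds Pygm, a downstream target.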

How the data were processed

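RNA-seq was made from 15 libraries of mouse primary myoblasts, 5 lines in each of 3 groups, as polyadenylated RNA read at 150.0 bp, per the labels. The authors deposited raw counts per gene and, separately, TPM values. Genome build mm10 and DESeq2 are named in the submitters' processing notes, and the aligner and counting tool are not stated in those notes or in the labels. Symbols were found for 48970 of 49315 gene IDs, and the rest held 0.032% of counts.

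The members and the lists were chosen with earlier results of these data known. Counts were tested with edgeR 4.0.16 (R 4.3.3): filterByExpr, TMM scaling and the quasi-likelihood F test, Benjamini-Hochberg adjusted over all genes tested, with a threshold of 0.05. The first fit had the group alone (8 residual degrees of freedom), and the second added the line as a block (4). The series text gives 5 primary lines, and same-numbered libraries deviated together: 15 same-line pairs correlated at 0.278 to 0.889 (median 0.713) and 60 other pairs at -0.517 to 0.269, and the numbers were used as pairs. The siSirt1 library of line 1 was the weakest case, at 0.278 and 0.304, and its number could not be checked further. The SE is the log2 fold change divided by the root of F. Alternatives were DESeq2 1.42.0, other scalings, no filter, all 15 libraries in 1 fit and leaving out libraries or lines. The fits were tested on simulated data. Tables and figures used Python 3.11.15 with pandas 2.3.3 and matplotlib 3.10.9.

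Named genes were the 6 subunits, the 5 genes most like Prkar2a and, from each of 9 pathway lists, the most abundant member per length and up to 2 members with the smallest p in each comparison with siCtrl. Other list members that passed with the block are named too and were chosen after their values were seen. Besides myoblast, smooth muscle and pericyte, macrophage and adipocyte markers, 4 lists were summed: fibroblast markers (88.6 to 797 CPM), endothelial markers (1.05 to 96.6 CPM), Schwann and glial markers (12.4 to 30.3 CPM) and neuron markers (24.1 to 66.1 CPM). A member of the Gs list is not reported here.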

Additional observations from a re-analysis of the deposited data

Results flagged for a closer look

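Prkar1a in siCtrl stood at 791.0 CPM in line 7, against 553.7 to 614.3 CPM in the other 4 lines. The gap to the nearest line was 0.744 of the range of the group, above the limit of 0.71 used for 5 samples. Of 18 groups examined in this way (6 subunits in 3 groups), this was the 1 that passed, and chance passes about 1 in 20. Line 7 also had the highest Prkar1a in siLmod1, at 681.1 CPM, and in siSirt1, at 761.9 CPM.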

How the results depend on the processing

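Prkar2a kept its direction in all 24 alternatives of each comparison, from 0.66 to 0.80 in siLmod1, -1.18 to -0.97 in siSirt1 and -1.88 to -1.75 in siSirt1 against siLmod1 (log2). The block raised the genes called from 17 to 4430 in siLmod1, from 19 to 1054 in siSirt1 and from 229 to 2379 in siSirt1 against siLmod1. In the same order, the counts were 6, 7 and 90 without the filter, 258, 286 and 922 with DESeq2, and 38, 150.0 and 554 with all 15 libraries. With all 15 libraries and the block they were 1427, 2530.0 and 4210.0. With DESeq2 and the block they were 3975, 1940.0 and 3148, and without lines 4 and 7, with the block, 3029, 1166 and 2822; these settings were chosen after seeing the data. Library totals gave 7 in siSirt1 and moved the median of all genes there from 0.02 to 0.13. Leaving out a library gave 3 to 10, 3 to 13 and 54 to 247, and leaving out a line with the block 2833 to 4264, 332 to 580.0 and 946 to 1771.

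Subunits called other than Prkar2a in siLmod1 went from 0 to 2 with the block, with DESeq2 and the block, without lines 4 and 7, and with any line left out (2 to 2). In siSirt1 against siLmod1 they went from 0 to 1 with DESeq2 and the block (Prkacb) and without lines 4 and 7 (Prkaca).

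Directions near 0 turned. Prkaca in siSirt1 (0.004) was -0.017 with the block, -0.029 without the filter, -0.004 with DESeq2, -0.011 with all 15 libraries and the block and -0.026 with DESeq2 and the block. With library totals, Prkar2b in siLmod1 was 0.021, and Prkar1a was 0.02 in siSirt1 and 0.072 against siLmod1. Without lines 4 and 7, Prkar1a was 0.022 and 0.047 in these comparisons and Prkacb in siSirt1 0.06. With libraries or lines left out, Prkar1a ran from -0.168 to 0.008 in siLmod1, -0.171 to 0.01 in siSirt1 and -0.066 to 0.074 against siLmod1. Prkar2b ran from -0.148 to 0.11, -0.162 to 0.187 and -0.146 to 0.227, and Prkaca in siSirt1 from -0.177 to 0.15. In siLmod1, Akap12 ran from -1.923 to 0.219 and Pde1a from -1.845 to 0.67, both turning without siCtrl line 4. Adcy8 ran from -0.895 to 0.292 and Cacna1s from -0.417 to 0.053, and Atf3 in siSirt1 from -0.071 to 1.428. The cause was not tested. Prkar1b had 88 to 248 counts per library.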
